A study of Mus musculus with 4 samples.

Results

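The genes described here encode the collagens of the extracellular matrix and the enzymes that cross-link, cut and protect it. They were taken by symbol: collagen chains (Col followed by a number and a, as in Col1a1), matrix metalloproteinases (Mmp), their tissue inhibitors (Timp), the lysyl oxidases (Lox, Loxl1, Loxl3 and Loxl4) and the ADAMTS family (Adamts and Adamtsl). That gave 97 of the 22180 genes measured: 44 collagen chains, 4 lysyl oxidases, 22 metalloproteinases, 4 inhibitors and 23 members of the ADAMTS family. Each gene is represented by its brightest probe set, and 7 of the 97 had more than 1.

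Brown adipose tissue came from male C57BL/6 mice, 4 months old and kept on chow, in 2 genotypes: 2 samples from knockout (KO) mice lacking Tsku, and 2 samples from wild-type (WT) mice. Tsku encodes tsukushi, a secreted small leucine-rich proteoglycan, and how its allele was made is not given in the sources used here. RNA of each sample was hybridised to 1 whole-transcript array, and every level below is the deposited log2 value, whose zero is arbitrary, so that a level says nothing when set against that of another gene. The labels call the 2 samples of a genotype biological replicates without saying which mice they came from, so any p reflects the distance between these samples alone, whether technical or between mice.

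Array medians lay between 0.56 and 0.58. The 1405 probe sets for olfactory and vomeronasal receptors, which fat is not known to express, set the background: their 95th percentile was 0.63 to 0.81, depending on the array. The tissue label fitted its markers, since 14 of 15 brown adipocyte genes were above background on all 4 arrays, among them Ucp1, the uncoupling protein of brown fat (9.99 and 10.00 in KO, against 9.52 and 9.38 in WT). Tsku had no listed probe set, so the genotypes rest on the labels. KO replicate 1 stood apart in macrophage markers and the genotypes differed in skeletal muscle markers, and both are given below where they touch a result.

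Collagen chains are hydroxylated and folded into triple helices inside the cell, secreted as procollagens, trimmed at their ends and cross-linked outside it by lysyl oxidases. Fibrillar collagens carry tension, type IV collagen forms the network of basement membranes, and type VI collagen makes beaded filaments that surround adipocytes. Metalloproteinases and ADAMTS proteases cut this matrix, and TIMPs block the metalloproteinases. In adipose tissue most matrix genes are made by fibroblasts and vascular cells, while every adipocyte sits in its own basement membrane.

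Brown fat expressed a broad part of the family. Of the 97 members, 37 were above background on all 4 arrays, 23 on some and 37 on none. Those above it everywhere were 7 of 11 fibrillar collagens, 4 of 9 basement membrane collagens, 4 of 11 beaded filament and short chain collagens and 2 of 13 fibril-associated and transmembrane collagens. They also included 3 of 4 lysyl oxidases, 3 of 4 TIMPs, 5 of 22 metalloproteinases and 9 of 23 ADAMTS and ADAMTS-like genes. Counted by the mean over the 4 arrays, 47 members were above background.

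**Figure D1:**
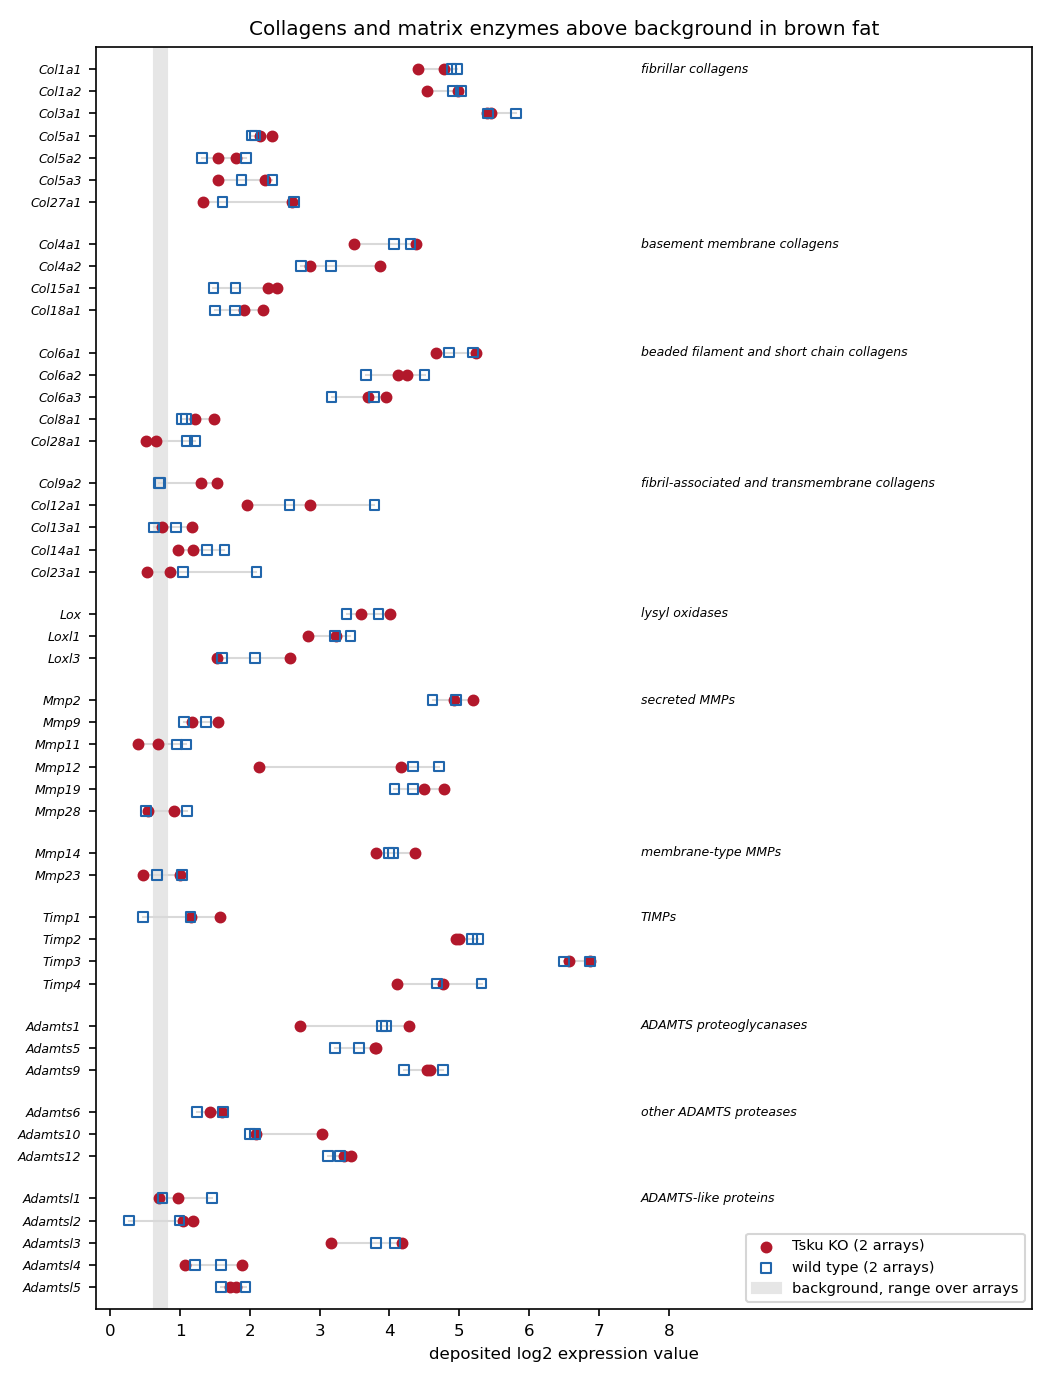
Deposited log2 value (x axis) of the 47 members whose mean over 4 arrays was above background, 1 row per gene and grouped by class. Filled circles are the 2 Tsku KO arrays, open squares the 2 WT arrays, and the grey band is the range of the background over the arrays. The genotypes overlap in most rows, and Mmp12 has the widest spread, with 1 KO array at 2.13 and the other 3 arrays between 4.16 and 4.70. Positions of different genes cannot be compared.

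The comparison of KO with WT asks whether loss of Tsku changes matrix gene expression in brown fat. With limma and Benjamini-Hochberg adjustment over all genes, 0 members passed an adjusted p of 0.05, as did 0 of all 22180 genes (0%), and the smallest adjusted p of a member was 0.872. There were 4 members (4.12%) with an unadjusted p under 0.05, Col9a2 and Col15a1 with higher and Col28a1 and Col2a1 with lower values in KO, against 5.56% of all genes. In KO 2.89% of all genes were higher and 2.67% lower at that p. Among the 47 members with a mean above background, 3 (6.38%) had such a p, against 8.02% of all genes with a mean above background. The 2 KO arrays lay both above or both below the 2 WT arrays in 36 members (37.1%), 22 of them higher and 14 lower in KO. Over all genes this share was 35.2%, with 19.4% higher and 15.8% lower, so the members stood near the background by each of these counts.

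The median log2 difference (KO minus WT) over the 97 members was 0.04, beside 0.02 over all genes. A higher mean in KO was found in 57 members (58.8%), against 52.6% of all genes. Single differences ran from -1.38 for Mmp12 to 0.70 for Col9a2. In 73 of the 97 members (75.3%) the arrays of at least 1 genotype were further apart than the genotype means, against 77.4% of all genes. The 95% interval of a member's difference reached 0.53 to either side at the median, so smaller differences could not be told from none for a typical member.

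**Figure D2:**
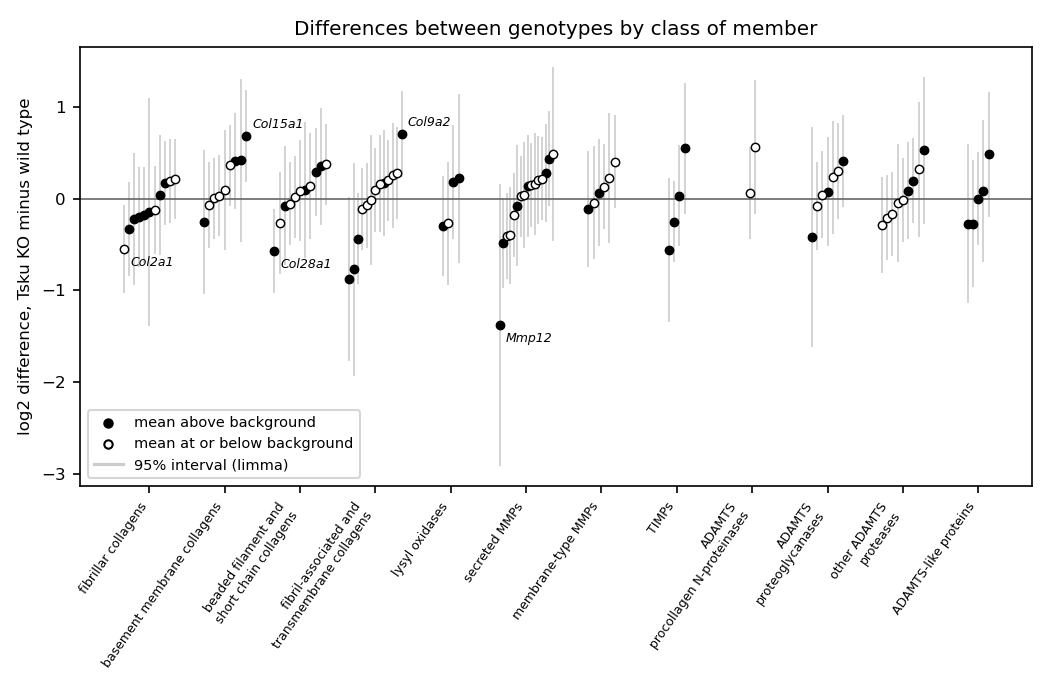
Log2 difference, Tsku KO minus WT (y axis), of each of the 97 members, sorted within its class (x axis), with its 95% limma interval as a grey line. Filled points have a mean above background. The 4 members with an unadjusted p under 0.05 (Col9a2, Col15a1, Col28a1 and Col2a1) and Mmp12 are named, and the points of every class with more than 2 members lie on both sides of 0.

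Among the fibrillar collagens, the intervals of the type I and type III chains all included 0. Col1a1, a chain of type I collagen, the main tension-bearing collagen, read 4.41 and 4.78 in KO, against 4.97 and 4.89 in WT, a log2 difference of -0.33 (95% interval -0.84 to 0.18). Both KO arrays were below both WT arrays, but the difference was 1.26-fold. Its partner chain gene Col1a2 read 4.98 and 4.54 in KO and 5.02 and 4.91 in WT, and Col3a1, the chain of type III collagen, 5.46 and 5.40 in KO and 5.81 and 5.41 in WT. The genotypes overlapped in both, with differences of -0.20 (-0.75 to 0.34) and -0.18 (-0.70 to 0.34).

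Type V collagen sits inside type I fibrils and sets their width. Its chain genes Col5a1 and Col5a2 differed by 0.17 (-0.28 to 0.63) and 0.04 (-0.61 to 0.69). Some values depended on the probe set: a second, dimmer one gave -0.21 for Col5a1 and 0.04 for Col1a2. Col2a1, the chain of cartilage collagen, read 0.22 and 0.17 in KO, against 0.89 and 0.61 in WT, a difference of -0.55 (SE 0.20, 95% interval -1.03 to -0.07, limma adjusted p = 0.872). Only WT replicate 1 was above background, so no fold is given. The unadjusted p was under 0.05 without WT replicate 2, but not without any of the other arrays or without variance moderation. Of 9 cartilage and bone markers 1, Sox9, was above background on all 4 arrays, and 6 of the 9 were higher in KO. Over the 11 fibrillar chains 4 were higher in KO and the median difference was -0.15, beside 0.02 over all genes.

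The basement membrane collagens held the only member with an unadjusted p under 0.05 whose 4 arrays were all above background. Col15a1, a collagen with a heparan or chondroitin sulphate chain that lies where basement membranes meet the surrounding fibrils, read 2.25 and 2.38 in KO, against 1.80 and 1.48 in WT. The genotypes did not overlap. The difference was 0.68 (SE 0.20, 95% interval 0.18 to 1.18), or 1.60-fold, with a limma adjusted p of 0.872. Without single arrays it ran from 0.52 to 0.84, and the unadjusted p stayed under 0.05 without WT replicate 1 or KO replicate 1 but not without WT replicate 2 or KO replicate 2, with a variance trend on the mean or without variance moderation. Col18a1, its close relative and the source of the fragment endostatin, read 2.19 and 1.91 in KO, against 1.50 and 1.78 in WT. Again both KO arrays were the higher ones, with a difference of 0.41 whose interval of -0.11 to 0.93 included 0.

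Col4a1 and Col4a2 encode the chains of the common type IV collagen, which assemble as 2 of the first and 1 of the second, and their genes lie head to head on mouse chromosome 8 with a shared control region. Col4a1 read 3.49 and 4.37 in KO, against 4.30 and 4.07 in WT. Col4a2 read 2.86 and 3.87 in KO, against 3.16 and 2.74 in WT. Both chains were over 0.8 lower in KO replicate 1 than in KO replicate 2, and neither differed between genotypes beyond that spread (-0.25, interval -1.03 to 0.53, and 0.42, interval -0.48 to 1.31). The direction of each turned without 1 KO array.

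Taken as a ratio within each array, which removes what both chains share on an array, the pair varied less within a genotype. The log2 value of Col4a2 minus that of Col4a1 was -0.63 and -0.50 in KO, against -1.14 and -1.33 in WT. The mean was -0.57 ± 0.09 in KO and -1.23 ± 0.13 in WT (SD, n = 2 each), a difference of 0.67. With 2 arrays against 2 an exact two-sided permutation test cannot go below p = 0.333, which is what this pair gives. Of 8 such ratios between members computed, 4 did not overlap between genotypes, where 35.2% of single genes did not overlap. Besides this pair they were Col6a3 minus Col6a2 (0.25), Col6a3 minus Col6a1 (0.43) and Col3a1 minus Col5a2 (-0.22). A ratio does not say which chain its difference comes from.

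The same ratio for the type I chains did not separate the genotypes. Col1a1 minus Col1a2 was -0.57 and 0.24 in KO, and -0.06 and -0.02 in WT. Type VI collagen has 3 chains. Col6a1 read 5.24 and 4.66 in KO and 5.20 and 4.86 in WT, and Col6a2 read 4.25 and 4.12 in KO and 4.50 and 3.67 in WT. Col6a3, whose chain ends in the fragment endotrophin, read 3.95 and 3.70 in KO, against 3.77 and 3.17 in WT. The genotypes overlapped in all 3 chains, with differences of -0.08 (-0.72 to 0.57), 0.10 (-0.64 to 0.84) and 0.35 (-0.29 to 0.99). A dimmer second probe set of Col6a1 gave 0.69, against the direction of the brighter one. Col6a3 minus Col6a2 was -0.30 and -0.42 in KO, against -0.73 and -0.50 in WT, 0.25 apart on average.

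**Figure D3:**
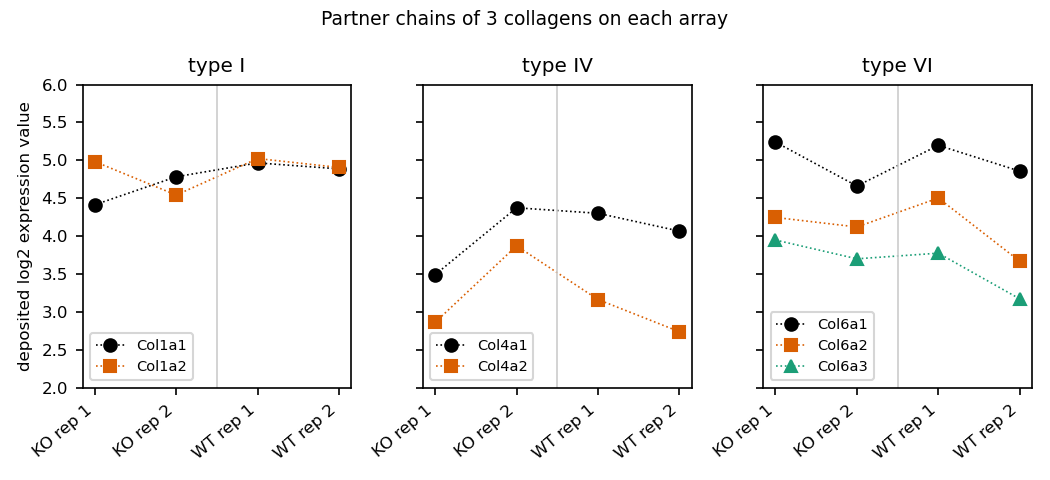
Deposited log2 value (y axis) of the chains of type I, IV and VI collagen on each array (x axis, KO arrays left of WT arrays). In the type IV panel both chains are lower on KO replicate 1 than on KO replicate 2, with Col4a2 lowest on WT replicate 2, and the gap between Col4a1 and Col4a2 is narrower on the KO arrays (0.63 and 0.50) than on the WT arrays (1.14 and 1.33). Levels of different chains are not comparable, only how their distance varies between arrays.

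The member with the smallest p was Col9a2. It encodes a chain of type IX collagen, which in cartilage coats the surface of type II fibrils. It read 1.31 and 1.52 in KO, against 0.72 and 0.70 in WT, where 1 of 2 arrays was above background. The difference was 0.70 (SE 0.19, 95% interval 0.24 to 1.17), or 1.63-fold, with a limma adjusted p of 0.872. Leaving out single arrays gave 0.60 to 0.81, with an unadjusted p under 0.05 each time. The other type IX chains, Col9a1 and Col9a3, were below background on all 4 arrays.

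Col28a1, a small collagen with von Willebrand factor A domains that is found around peripheral nerve in mice, was the member with the smallest p among those with lower values in KO. It read 0.52 and 0.66 in KO, below background on both arrays, against 1.22 and 1.11 in WT, above it on both. The difference was -0.57 (SE 0.19, 95% interval -1.03 to -0.12, limma adjusted p = 0.872). The measured WT mean was at least 1.32-fold higher, a bound set by the background and not by the interval. The unadjusted p was under 0.05 without KO replicate 2, but not without any of the other arrays or with a variance trend on the mean. Among the 6 Schwann cell markers measured, 4 were higher and 2 lower in KO, and 2 were above background on all 4 arrays. The list's summed linear signal was 16.01 and 31.55 in KO, against 18.29 and 15.44 in WT. On KO replicate 2 most of the sum came from S100b, which read 2.93 and 4.47 in KO, against 3.22 and 2.57 in WT. Ngfr (-0.51, SE 0.19), below background on both KO arrays, alone had an unadjusted limma p under 0.05 (16.7%), against 5.56% of all genes. The part of Schwann cells in the Col28a1 result was not tested.

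Col23a1, a transmembrane collagen, read 0.86 and 0.53 in KO, against 2.09 and 1.05 in WT, a difference of -0.88 (-1.77 to 0.02). The WT arrays were 1.05 apart, further than the genotype means. Col14a1, a fibril-associated collagen, read 1.18 and 0.97 in KO, against 1.39 and 1.64 in WT, a difference of -0.44 (-0.93 to 0.06). Its arrays did not overlap and all 4 were above background. Col8a1, a short chain collagen of vessel walls, differed by 0.29 (-0.19 to 0.77).

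The promoter of Col9a2 is shown because this gene had the smallest p of the family, and that of Adamts1 because its 2 KO arrays were far apart, as described below. Each is the 250 bases before the annotated start in RefSeq, build GRCm38.p6, with Col9a2 at chr4:121039316-121039565 on the plus strand and Adamts1 at chr16:85803114-85803363 on the minus strand. Capitals mark the TATA box letters TATAAA and the GC box letters GGGCGG, searched on both strands.
Col9a2: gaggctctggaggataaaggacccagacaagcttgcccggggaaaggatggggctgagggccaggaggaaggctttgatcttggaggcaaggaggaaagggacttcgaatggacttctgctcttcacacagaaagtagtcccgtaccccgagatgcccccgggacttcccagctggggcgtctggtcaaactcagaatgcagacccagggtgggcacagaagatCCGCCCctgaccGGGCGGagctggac
Adamts1: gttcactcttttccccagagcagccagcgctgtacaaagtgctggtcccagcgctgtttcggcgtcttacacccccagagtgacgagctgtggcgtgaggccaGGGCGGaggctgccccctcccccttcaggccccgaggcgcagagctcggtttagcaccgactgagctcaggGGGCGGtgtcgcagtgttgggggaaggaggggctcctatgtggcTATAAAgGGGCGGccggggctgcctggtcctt
Col9a2 held 0 TATA boxes and 2 GC boxes close to the start, and Adamts1 held 1 TATA box and 3 GC boxes, the last of them just after the TATA box.

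Promoter windows were listed for 70 of the 97 members, 76 windows in all. GGGCGG occurred in 53.9% of them, against 42.6% of the windows of protein-coding genes and 32.7% of all 32851 windows. TATAAA occurred in 19.7% of the members' windows, against 11.6% of the protein-coding and 12.4% of all. The letters TGANTCA, with any base at N, include the core of the AP-1 motif known from metalloproteinase genes but are looser than it. They occurred in 11.8%, against 6.13% and 6.75%, and CCAAT in 27.6%, against 35.4% and 33.8%. These shares describe the family's sequence and were not tied to any difference between genotypes.

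The lysyl oxidases, which oxidise lysines so that collagen and elastin cross-link, showed no difference beyond the spread. Lox read 3.59 and 4.01 in KO, against 3.84 and 3.39 in WT. Loxl1, the form tied to elastic fibres, read 3.23 and 2.83 in KO, against 3.44 and 3.22 in WT. Loxl3 read 1.54 and 2.58 in KO, against 2.08 and 1.60 in WT. The genotypes overlapped in all of them, and in Loxl4, for which WT replicate 2 alone was above background. Differences were 0.19 (-0.44 to 0.81) for Lox, -0.30 (-0.85 to 0.25) for Loxl1, 0.22 (-0.70 to 1.14) for Loxl3 and -0.27 (-0.94 to 0.40) for Loxl4.

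Among the metalloproteinases Mmp12, the elastase of macrophages, had the largest difference of any member. It read 2.13 and 4.16 in KO, against 4.70 and 4.34 in WT. Both KO arrays lay below both WT arrays, but KO replicate 2 was close to the nearer WT array and the KO arrays were 2.04 apart. The difference was -1.38 (SE 0.63, 95% interval -2.91 to 0.16), or 2.60-fold, with a limma adjusted p of 0.872. Without KO replicate 1 it was -0.36 (limma adjusted p = 0.927), and without KO replicate 2 it was -2.39 (adjusted p = 0.676).

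Most macrophage markers were also lower on KO replicate 1 than on KO replicate 2, with Fcgr1 and Cd14 the exceptions. Of the 15 measured, 14 had a lower mean in KO, with a median difference of -0.41, and 14 were above background on all 4 arrays, with Cx3cr1 the exception. Their summed linear signal was 176 and 318 in KO, against 332 and 347 in WT. After subtracting the 4-array mean of every gene, the median marker stood at -0.55 on KO replicate 1 and 0.08 on KO replicate 2, against 0.26 and 0.24 on the WT arrays. Cd68, a lysosomal protein of macrophages, read 3.53 and 4.65 in KO, against 5.17 and 4.77 in WT. Both KO arrays lay below both WT arrays in 7 of the 15 markers, against 15.8% of all genes. Ctss read 4.48 and 5.20 in KO, against 5.92 and 6.01 in WT, a difference of -1.12 (SE 0.27). With C1qc (-0.85, SE 0.34) it made up the 2 markers (13.3%) with an unadjusted limma p under 0.05. That share was 5.56% over all genes and 8.02% over those with a mean above background. In whole tissue, fewer cells of a type and less RNA per cell cannot be told apart, and the part of macrophages in the Mmp12 result was not tested.

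Mmp12 lies in a cluster of 10 measured metalloproteinase genes on mouse chromosome 9. It was the only one of them above background on all 4 arrays, and 7 were below it on all 4 (Mmp1a, Mmp1b, Mmp3, Mmp8, Mmp10, Mmp13 and Mmp20). Mmp7 was above background on WT replicate 1 alone, and Mmp27 on KO replicate 1 alone, at 1.37, against 0.28 on KO replicate 2 and 0.12 and 0.57 in WT.

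Mmp2, Mmp14 and Mmp19 were above background on all 4 arrays. Mmp2, which cuts denatured and type IV collagen, read 5.20 and 4.93 in KO, against 4.95 and 4.62 in WT. Mmp14, the membrane-bound protease that activates pro-Mmp2 at the cell surface, read 4.36 and 3.81 in KO, against 3.99 and 4.05 in WT. The genotypes overlapped in both, with differences of 0.28 (-0.25 to 0.81) and 0.07 (-0.52 to 0.65). Mmp19 read 4.78 and 4.49 in KO, against 4.33 and 4.07 in WT, a difference of 0.43 (-0.08 to 0.95) with no overlap. Mmp9, the gelatinase that neutrophils and macrophages release, differed by 0.14 (-0.42 to 0.69), and 1 of 11 neutrophil markers was above background on all 4 arrays. Mmp11 was below background on both KO arrays (0.69 and 0.40) and above it on both WT arrays (1.09 and 0.96). By this probe set its measured WT mean was at least 1.21-fold higher, a bound set by the background that leaves out the spread. The difference of Mmp11 was -0.48 with an interval of -0.97 to 0.01 that included 0, and a dimmer second probe set gave -0.02. Mmp23 differed by -0.11 (-0.75 to 0.52), with 1 array of each genotype above background.

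The 4 TIMPs, which block the active site of metalloproteinases, had differences in both directions. Timp1, the inducible form, read 1.15 and 1.57 in KO, against 0.48 and 1.15 in WT, where 1 of 2 arrays was above background. Timp2, which also takes part in the activation of pro-Mmp2, averaged 4.98 ± 0.03 in KO and 5.23 ± 0.07 in WT (SD, n = 2 each). Both KO arrays were below both WT arrays, but the difference was -0.25 (-0.69 to 0.19), or 1.19-fold, which the fit across all genes did not call. Timp3, the form bound to the matrix, read 6.57 and 6.86 in KO and 6.87 and 6.50 in WT. Timp4, which is prominent in adipose tissue and heart, read 4.11 and 4.77 in KO, against 4.68 and 5.32 in WT, a difference of -0.56 (-1.34 to 0.23) with overlap. The differences of Timp1 and Timp3 were 0.55 (-0.17 to 1.26) and 0.03 (-0.52 to 0.58).

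In the ADAMTS family, secreted proteases with thrombospondin repeats, 0 of 23 members had an unadjusted p under 0.05. Adamts1 and Adamts5 are proteoglycanases that cut versican and aggrecan, and their genes neighbour each other on mouse chromosome 16. Adamts1 read 2.72 and 4.28 in KO, against 3.89 and 3.95 in WT. Its KO arrays lay on either side of the WT arrays and 1.56 apart, so the difference of -0.42 (-1.61 to 0.77) turned to 0.36 without KO replicate 1 and was -1.20 without KO replicate 2. Adamts5 read 3.79 and 3.81 in KO, against 3.22 and 3.57 in WT, with no overlap, and differed by 0.41 (-0.10 to 0.91). Adamts9 differed by 0.08 (-0.52 to 0.67), and Adamts4 was below background on all 4 arrays.

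Adamts10, which binds fibrillin microfibrils, read 3.03 and 2.09 in KO, against 2.00 and 2.08 in WT. Its KO mean was set by replicate 1, and its difference of 0.53 (-0.27 to 1.33) was 0.06 without that array. Adamts12 differed by 0.20 (-0.26 to 0.66) and Adamts17 by -0.29 (-0.81 to 0.24). Of the procollagen N-proteinases, which trim the amino ends of fibrillar procollagens, Adamts2 was not analysed here, so the group was only partly measured. Adamts3 was below background on all arrays. Adamts14 was above it on KO replicate 1 alone (1.17, against 0.35 on KO replicate 2 and 0.20 and 0.20 in WT), with a difference of -0.05 by its second probe set.

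ADAMTS-like proteins share the repeats but have no protease domain. Adamtsl2 read 1.18 and 1.04 in KO, against 0.27 and 0.99 in WT, a difference of 0.48 (-0.20 to 1.16) with 1 of 2 WT arrays above background. Adamtsl3 read 3.16 and 4.18 in KO, against 3.81 and 4.08 in WT, and Adamtsl1 differed by -0.27 (-0.97 to 0.42).

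The 2 KO arrays were far apart in some members. Of the 47 members with a mean above background, 10 (21.3%) were more than 0.8 apart between the KO arrays, against 8.61% of all genes with a mean above background. Between the WT arrays 4 (8.51%) were that far apart, against 7.68%. Over all 97 members the KO share was 12.4%, beside 6.14% of all genes. By class, 0 of 4 TIMPs, 0 of 6 membrane-type metalloproteinases and 0 of 11 beaded filament and short chain collagens were that far apart. So were 2 of 9 basement membrane collagens, 2 of 16 secreted metalloproteinases and 5 of 23 ADAMTS and ADAMTS-like genes. Beside shares of 12.4% and 6.14%, counts in classes this small do not tell the classes apart. Over the 44 collagens the KO and WT shares were both 9.09%. Of the 10, KO replicate 1 was the lower array in 8 (Mmp12, Adamts1, Adamtsl3, Col4a1, Col4a2, Col12a1, Col27a1 and Loxl3) and the higher one in Adamts10 and Adamtsl4. Among all genes with a mean above background and such a gap, KO replicate 1 was the lower array in 645 of 962 (67.0%).

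Col12a1, a fibril-associated collagen, read 1.96 and 2.86 in KO, against 3.79 and 2.57 in WT, and Col27a1, a fibrillar collagen, 1.33 and 2.61 in KO, against 2.63 and 1.61 in WT. In both the WT arrays were also more than 0.8 apart. Endothelial markers, like the type IV chains, were higher on KO replicate 2: their summed linear signal was 641 and 850 in KO, against 746 and 651 in WT, and all 15 were above background on all 4 arrays. Smooth muscle and pericyte markers summed to 638 and 750 in KO, against 842 and 719 in WT, and most of each sum came from Rgs5. Of the 11 markers 8 were lower in KO and 3 higher, with a median difference of -0.13. Cspg4 (0.98, SE 0.19), Notch3 (0.95, SE 0.21) and Tagln (-0.50, SE 0.19) had an unadjusted limma p under 0.05 (27.3%). That share was 5.56% over all genes and 8.02% over those with a mean above background. The sum of fibroblast and progenitor markers varied less, at 548 and 520 in KO, against 557 and 558 in WT. Most of that sum came from Gsn and Dpt. Of the 13 markers 9 were lower in KO and 4 higher, with a median difference of -0.01. Thy1 (-0.69, SE 0.19) and Fstl1 (-0.47, SE 0.18) had an unadjusted limma p under 0.05 (15.4%), against the same 5.56% and 8.02%. The part of these cells in the spread between arrays was not tested.

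**Figure D4:**
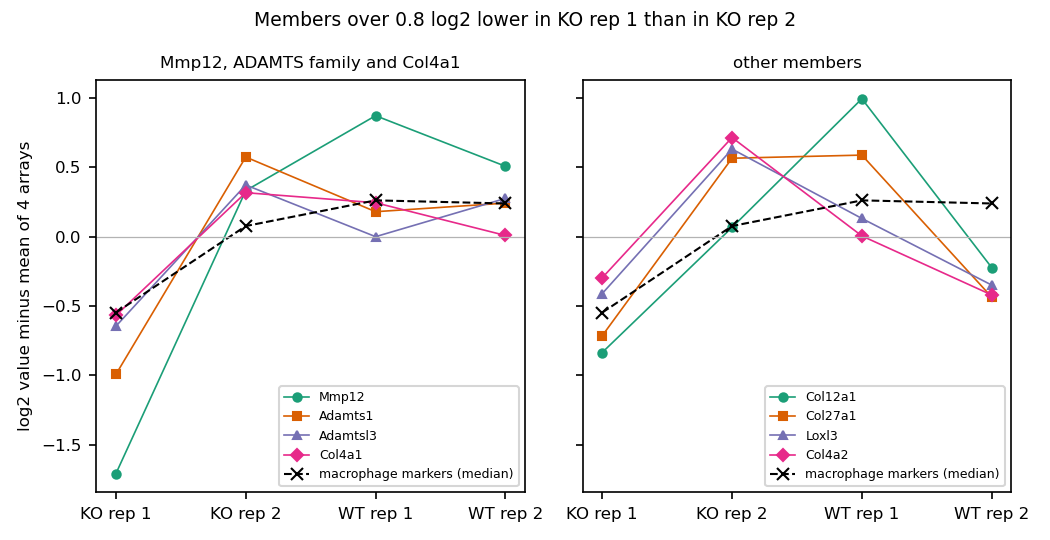
Log2 value minus the gene's mean over the 4 arrays (y axis) on each array (x axis) for the 8 members that were over 0.8 lower on KO replicate 1 than on KO replicate 2, in 2 panels. The dashed line is the median of 15 macrophage markers (-0.55 and 0.08 on the KO arrays, 0.26 and 0.24 on the WT arrays). All of them but Col4a2, which was lowest on WT replicate 2, were lowest on KO replicate 1, with Loxl3 close to its WT replicate 2 value there.

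Genes that act with the family were counted by list. Among 23 enzymes and chaperones of collagen folding, modification and trimming, 11 were higher in KO, the median difference was -0.06, and 0 passed the adjusted threshold. Bmp1, the proteinase that removes the carboxyl ends of fibrillar procollagens and also activates Lox, read 3.65 and 3.75 in KO, against 2.73 and 2.66 in WT. The genotypes were well apart, with a difference of 1.01 (SE 0.18, limma adjusted p = 0.872). Fkbp14, a collagen chaperone of the endoplasmic reticulum, differed by 0.65 (SE 0.24). These were the 2 genes of the list (8.70%) with an unadjusted p under 0.05, against 5.56% of all genes and 8.02% of those with a mean above background.

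Of 9 collagen receptors 1 (11.1%) was higher in KO, against 52.6% of all genes. Their median difference was -0.11, with 0 at an unadjusted p under 0.05. Of 26 matrix glycoproteins and laminins 15 were higher, with a median of 0.08, and 4 (15.4%) had an unadjusted p under 0.05, against the same 5.56% and 8.02%. Thbs1, thrombospondin 1, an adhesive protein that activates latent TGF-beta, read 0.42 and 1.06 in KO, against 2.15 and 1.91 in WT, with 1 KO array above background and a difference of -1.29 (SE 0.27). Its relative Thbs2 differed by -0.68 (SE 0.23), again with 1 KO array above background. Emilin1, a glycoprotein of elastic fibres, differed by 0.77 (SE 0.21). The fourth was Tnc, tenascin C, at -1.04 (SE 0.38). It read 0.69 and 1.72 in KO, against 2.50 and 1.98 in WT, with KO replicate 1 below background. Each of these 4 had a limma adjusted p of 0.872.

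Of 23 protease regulators and other matrix proteases 10 were higher, with a median of -0.01. Adam12, a membrane protease, differed by 0.61 (SE 0.21) and Ctsk, the collagen-degrading cathepsin K, by 0.49 (SE 0.19), the 2 (8.70%) with an unadjusted p under 0.05, both with a limma adjusted p of 0.872. Among cell type markers, skeletal muscle stood furthest from 0, with all 23 lower in KO, a median difference of -1.61 and a summed linear signal of 283 and 122 in KO, against 411 and 624 in WT. Liver markers were higher in 14 of 14, with a median of 0.44, but 6 of them were above background on all 4 arrays and 2 on none. They summed to 531 and 420 in KO, against 281 and 315 in WT. Most of each sum came from Hp (8.76 and 8.54 in KO, against 7.92 and 8.16 in WT). Brown adipocyte markers were higher in 13 of 15 (86.7%), where 52.6% of all genes were higher. Their median was 0.25, with sums of 5072 and 5383 in KO, against 4615 and 4540 in WT. The part of these cell types in the results for the collagens and matrix enzymes was not tested.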

How the data were processed

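Brown fat RNA (400 ng) went on 1 array per sample, according to the labels. What was deposited is a single table of log2 values, already normalized, for 41345 probe sets. The submitters' processing notes list RMA, oligo and limma, with neither role nor version, the genome build is not given in the sources used here, and base 2 is taken from RMA. RMA compresses differences between dim probe sets, so those of dim genes are understated. Platform annotation gave 1 symbol to 23521 probe sets, several to 1814 and none to 16010. Only the first were used, 23328 of which matched the GRCm38.p6 gene table, with the highest-mean probe set per gene. Of the family, 3 further genes of that table (Adamts2, Loxl2 and Mmp15) were not analysed here.

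KO was compared with WT in limma 3.58.1 (R 4.3.3; lmFit, eBayes, two-sided, no block, 2 residual and 3.96 prior degrees of freedom), with Benjamini-Hochberg adjustment over all 22180 genes. The number of arrays limits the precision. The script was tested on simulated data. Summed linear signals are sums of 2 to the power of the deposited value. A fold against a genotype below background on both arrays is a lower bound, set against the higher of background and the dim value on each array. It bounds the measured means and takes no account of the spread between arrays. Members and lists were chosen with earlier results of these data known. The 43 members named by rule are those with an unadjusted p under 0.05, up to 3 per class with the smallest p among those above background on 2 or more arrays, and a fixed panel. Col12a1, Col27a1, Adamts14, Adamtsl4, Mmp27, Sox9, Cd68, Ctss, C1qc, Fcgr1, Cd14, S100b, Ngfr, Tnc and the genes below background were named after their values were seen. Alternatives were a replicate block, filters, other probe sets, scalings, variance models and each array left out. Of 12 listed genes no probe set was used here.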

Additional observations from a re-analysis of the deposited data

How the results depend on the processing

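The count of members past an adjusted p of 0.05 was 0 under all 15 alternatives, where all genes gave between 0 and 15. With the replicate number as a block, 8 members had an unadjusted p under 0.05, against 4 without it (5.32% of all genes, against 5.56%). Same-numbered arrays did not deviate together (r = -0.07 across genes), and the labels give no link between them beyond the number. That correlation alone does not exclude a pairing. Leaving out single arrays gave 4 to 10 members at that p, 7 without WT replicate 2 and 10 without KO replicate 2, where all genes gave 5.09% and 7.31%. The members' median ran from 0.013 to 0.067, with 0.013 without WT replicate 2. Of 43 named members, 23 kept their direction under every alternative run. The mean of its probe sets gave 0.31 for Col6a1 and -0.018 for Col5a1, and the most variable one 0.69 and -0.21. These turned direction when 1 array was left out: Adamts1 (-1.20 to 0.36), Adamts4 (-0.084 to 0.17), Adamts9 (-0.20 to 0.36), Adamtsl1 (-0.63 to 0.082), Adamtsl3 (-0.78 to 0.23), Col1a2 (-0.42 to 0.019), Col3a1 (-0.38 to 0.019), Col4a1 (-0.69 to 0.19), Col4a2 (-0.089 to 0.92), Col5a2 (-0.28 to 0.36), Col6a1 (-0.37 to 0.21), Col6a2 (-0.32 to 0.52), Lox (-0.044 to 0.41), Loxl3 (-0.30 to 0.74), Loxl4 (-0.56 to 0.026), Mmp14 (-0.21 to 0.34), Mmp23 (-0.38 to 0.16), Mmp9 (-0.045 to 0.32) and Timp3 (-0.15 to 0.21). The cause was not tested. Without 1 array the lone sample of a genotype is assumed to vary like the other genotype.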
